A study of Mus musculus with 18 samples.

Results

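Mouse bone marrow macrophages that had met iron oxide particles before an LPS challenge were compared with macrophages that had met silica particles before the same challenge. The comparison set the 3 arrays titled SPIO-LPS against the 3 arrays titled Silica-LPS, chosen by those titles, which makes 6 of the 18 arrays of the study. It covered 12393 genes, each with 1 probe set. SPIO is the labels' name for iron oxide particles of 33 nm, and the silica particles were amorphous and measured 50 nm. Cells from the femurs of C57BL/6 mice aged 4 to 6 weeks were grown in medium with 10% serum and 20% medium conditioned by L929 cells, a fibroblast line that secretes the macrophage growth factor CSF-1. In the SPIO-LPS and Silica-LPS groups the cells were kept with the particles for 24 h, washed, and then given LPS, the endotoxin of Escherichia coli, at 10 ng/ml for 4 h. The submitters write the particle concentration as 25 mg/ml for both, a unit that could not be checked here. The other 4 groups of 3 arrays each received LPS after medium without particles (LPS), SPIO followed by fresh medium (SPIO), silica followed by fresh medium (Silica), or medium throughout (CON). The replicates are named biological, with no statement on whether they came from separate animals. A p-value here sets a difference against the spread among such replicates, and whether that spread includes variation between animals is not known.

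Macrophages sense LPS through the receptor TLR4, which switches on inflammatory cytokines, chemokines and an interferon response within hours, together with inhibitors that later end the response. They also recycle the iron of red cells: iron freed from heme is stored in ferritin or leaves the cell through ferroportin, and LPS is known to lower ferroportin transcription. Heme and oxidants can activate NRF2, a transcription factor for glutathione synthesis, thiol repair and detoxification, and engulfed particles end up in lysosomes, whose genes are driven by the factor TFEB.

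Genes of the NRF2 antioxidant response, heme breakdown, cholesterol synthesis and the lysosome were mostly higher in SPIO-LPS, and cell cycle, chemokine and complement genes mostly lower. Of the 12393 genes, 3113 (25.1%) differed between SPIO-LPS and Silica-LPS at an adjusted p below 0.05 in limma, a linear model fitted to all 18 arrays with Benjamini-Hochberg adjustment over all genes. Of these, 1514 (12.2% of all genes) were higher and 1599 (12.9%) lower in SPIO-LPS. The lists just named leaned the same way for SPIO against Silica without LPS, where 26.1% of all genes differed. There 27 of 35 NRF2 genes were higher and 2 lower, and 9 of 13 heme genes higher and 1 lower. The counts were 19 and 0 for 19 cholesterol genes and 27 and 1 for 43 lysosomal genes. They were 1 and 33 for 43 cell cycle genes, 1 and 12 for 22 chemokines, and 0 and 6 for 11 complement genes. Most differences were small: the median size of the 3113 was 0.31 on the log2 scale, and 75 genes (0.605%) differed at least 2-fold, 40 of them higher and 35 lower. All 3 arrays of 1 group lay above all 3 of the other for 4952 genes (40%), and for 3048 of the 3113 that passed the test. The largest rises and falls named were drawn from these 3048, so their lack of overlap is a description and no further support. The median difference over all genes was 0.02. Array medians were 6.228 to 6.247 in SPIO-LPS and 6.227 to 6.252 in Silica-LPS, and arrays correlated over probe sets at 0.9971 to 0.9974 within SPIO-LPS, 0.998 to 0.9981 within Silica-LPS and 0.9941 to 0.9943 between them. The median standard error of a difference was 0.08, and the median 95% half-interval 0.17. The 3′ minus 5′ log2 signal of control probe sets, a measure of RNA integrity, was 0.40 ± 0.064 in SPIO-LPS and 0.43 ± 0.046 in Silica-LPS for Gapdh, and 0.52 ± 0.014 in SPIO-LPS and 0.44 ± 0.026 in Silica-LPS for Actb (SD, n = 3 each). Its part in the results was not tested.

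Both groups carried the macrophage profile. The log2 signal of lysozyme (Lyz2) averaged 14.36 in SPIO-LPS and 14.36 in Silica-LPS, that of the signalling adaptor Tyrobp 13.28 and 13.26, and that of F4/80 (Adgre1), an adhesion receptor that marks macrophages, 12.28 and 12.31. None of the 3 passed the test, and Lyz2 lies near the array maxima of 14.48 to 14.62, where a difference could be hidden. Csf1r, the CSF-1 receptor, averaged 13.59 in SPIO-LPS and 13.72 in Silica-LPS and was lower by a small margin (−0.12), a call lost in a fit to the 6 compared arrays alone (adjusted p = 0.0825). Of 16 measured macrophage identity genes 4 were higher and 5 lower in SPIO-LPS (median −0.09), with Cebpa, a myeloid transcription factor, at 0.91 and Aif1, a cytoskeletal protein of macrophages, at −0.95.

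Markers of other cells gave signal too. Among 15 fibroblast and stroma markers 0 were higher and 14 lower in SPIO-LPS (median −0.37), and their summed level, the log2 of the added linear signals, was 15.05 to 15.08 in SPIO-LPS and 15.40 to 15.41 in Silica-LPS. Without LPS, 0 were higher and 14 lower with SPIO than with silica (median −0.42). The collagen Col1a2 averaged 12.96 in SPIO-LPS and 13.29 in Silica-LPS, and the smooth muscle actin Acta2 12.93 and 13.19. With the probe sets of Acta2 averaged its difference was −0.05 in place of −0.26 and did not pass (adjusted p = 0.636). Among 14 neutrophil and granulocyte precursor markers 1 was higher and 9 lower in SPIO-LPS (median −0.40), with summed levels of 14.16 to 14.21 in SPIO-LPS and 14.59 to 14.64 in Silica-LPS. The calcium-binding S100a9 averaged 12.14 in SPIO-LPS and 12.70 in Silica-LPS, and its partner S100a8 12.74 and 12.97. The 1 higher marker was the collagenase Mmp8, by 0.89, a larger difference than any of the falls, which reached −0.76. Of 3 monocyte markers 0 were higher and 2 lower in SPIO-LPS, at summed levels of 9.72 to 10.00 in SPIO-LPS and 10.27 to 10.44 in Silica-LPS. Of 8 osteoclast markers 0 were higher and 3 lower in SPIO-LPS, of 9 mast cell and basophil markers 0 were higher and 1 lower in SPIO-LPS, of 7 B cell markers 0 were higher and 1 lower in SPIO-LPS, and of 7 endothelial markers 1 was higher and 2 lower in SPIO-LPS. None of the 8 dendritic cell, 7 T and NK cell or 6 erythroid markers passed. Over all genes 12.2% were higher and 12.9% lower. In bulk cultures fewer cells of a type cannot be told apart from less RNA per cell, and the part of these markers in the results was not tested.

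**Figure D1:**
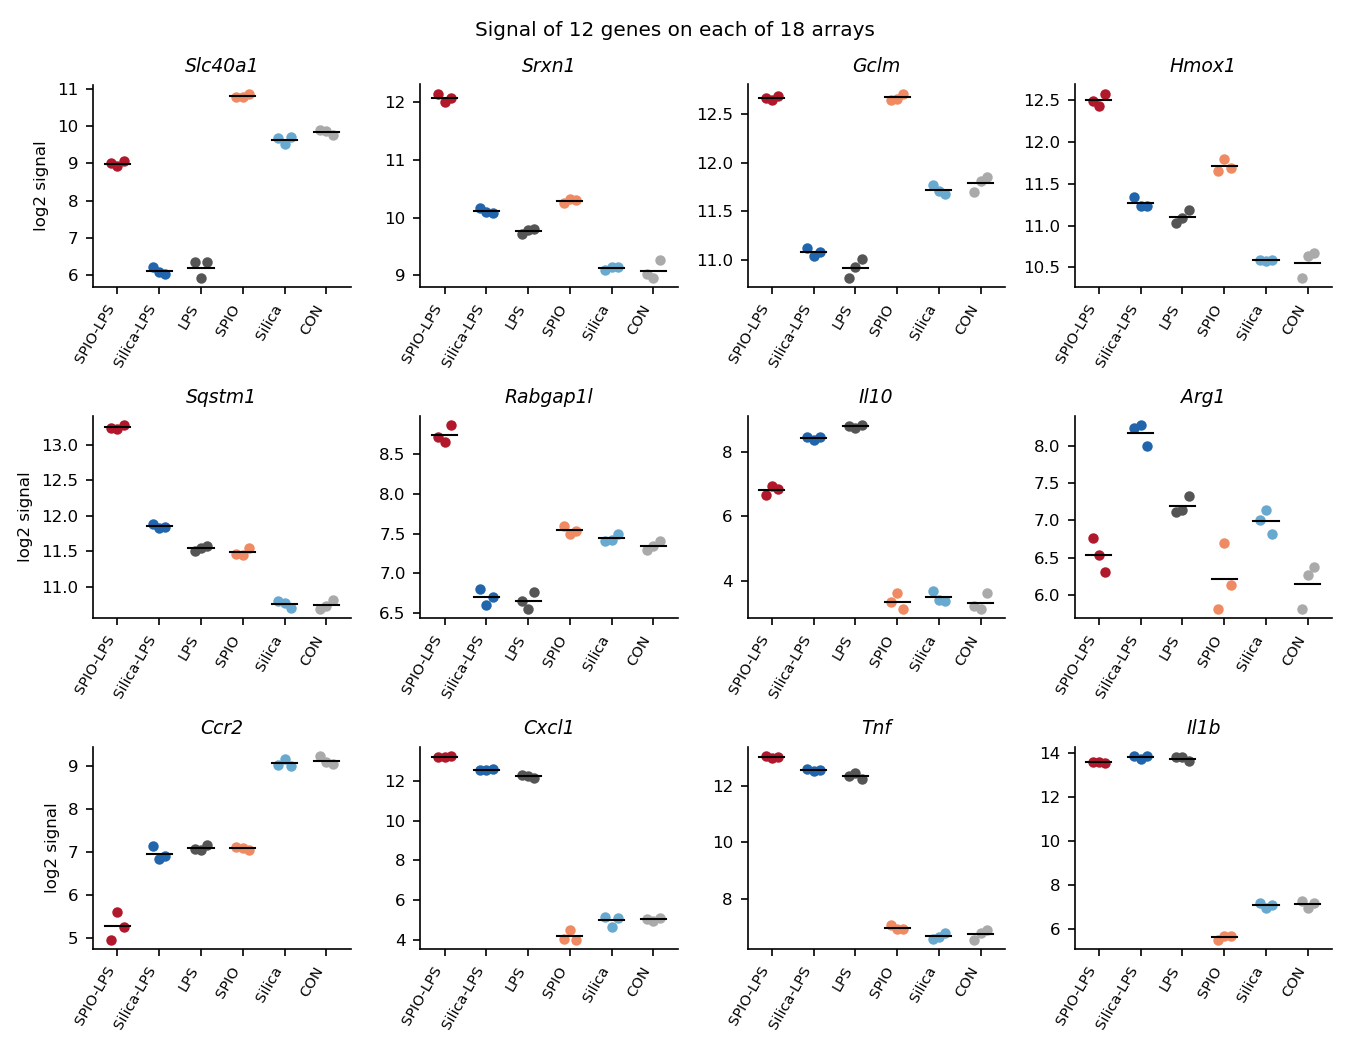
Log2 signal of 12 genes on each of the 18 arrays (vertical axes, each panel with its own range), with 1 point per array, bars at group means, and groups in the order SPIO-LPS, Silica-LPS, LPS, SPIO, Silica and CON. For Slc40a1, Srxn1, Gclm, Hmox1, Sqstm1 and Rabgap1l the 3 SPIO-LPS arrays lie above the 3 Silica-LPS arrays, and for Il10, Arg1 and Ccr2 below them.

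The gene with the largest difference was Slc40a1, which encodes ferroportin, the iron exporter of the cell. Its log2 signal was 9.01, 8.92 and 9.06 on the SPIO-LPS arrays and 6.23, 6.09 and 6.02 on the Silica-LPS arrays. The groups did not overlap and lay 2.88 ± 0.095 (SE) apart, which is 7.37-fold higher in SPIO-LPS (limma adjusted p = 1.4e-11). Slc40a1 averaged 6.2 ± 0.24 with LPS alone, 10.82 ± 0.043 with SPIO alone, 9.63 ± 0.095 with silica alone and 9.84 ± 0.07 in CON (SD, n = 3 each). The difference between the particles was 1.18 without LPS, and the change of that difference with LPS was 1.70 ± 0.13 (SE, adjusted p = 1.47e-06). A second probe set of the gene gave a difference of 2.19 under LPS.

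Of 22 measured iron transport and storage genes 5 were higher and 5 lower in SPIO-LPS, with a median of 0.00. Besides ferroportin, Slc11a1, which moves metal ions out of the phagosome, was higher by 0.53 and the transferrin receptor Tfrc by 0.29. The Tfrc call was lost when the gene's 3 probe sets were averaged (0.23, adjusted p = 0.0664). Ceruloplasmin (Cp), a ferroxidase that helps load iron onto transferrin, had 10.25, 10.25 and 10.29 in SPIO-LPS and 11.37, 11.42 and 11.30 in Silica-LPS, without overlap (−1.10). Hfe, a regulator of iron sensing, fell by 0.70, and lipocalin 2 (Lcn2), which captures bacterial siderophores and was also among the neutrophil markers, by 0.76. Ferritin heavy chain (Fth1), an iron store, had 14.53, 14.53 and 14.54 in SPIO-LPS and 14.47, 14.50 and 14.50 in Silica-LPS, a difference of 0.04 that did not pass. Those values sit at the top of the scale, where differences may be compressed.

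Heme genes were higher for 7 of 13 and lower for 1 (median 0.27). Heme oxygenase 1 (Hmox1), which opens the heme ring and releases its iron, had 12.49, 12.43 and 12.58 in SPIO-LPS and 11.34, 11.24 and 11.23 in Silica-LPS. The groups did not overlap, and Hmox1 was 2.35-fold higher in SPIO-LPS (1.23 ± 0.073, adjusted p = 6.9e-09). Slc48a1, which carries heme out of the phagolysosome, was higher by 0.88, biliverdin reductase B (Blvrb) by 0.77, and Alas1, the first enzyme of heme synthesis, by 0.41. Cd163, the receptor for hemoglobin bound to haptoglobin, was dim, at 4.15, 3.85 and 3.71 in SPIO-LPS and 4.09, 4.28 and 4.21 in Silica-LPS, and its difference of −0.28 did not pass, except without SPIO-LPS replicate 1 (−0.41, adjusted p = 0.0472).

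In the NRF2 antioxidant response, 27 of 35 measured genes were higher and 3 lower in SPIO-LPS (median 0.67), and the summed level was 16.61 to 16.66 in SPIO-LPS and 15.91 to 15.94 in Silica-LPS. NRF2 binds the antioxidant response element, whose core was searched as TGACNNNGC on both strands of RefSeq promoters (build GRCm38.p6), from 250 bases before to 50 after the start site. It was found in 10 of 30 listed genes with a promoter (33.3%): in 8 of the 23 that were higher and 1 of the 3 that were lower. Over all 9887 measured genes with a promoter, 1614 (16.3%) held it. The windows printed here carry it in genes that were higher in SPIO-LPS, namely Gclm, a subunit of the enzyme that limits glutathione synthesis, the glutathione transferases Mgst1 and Gsta3, and thioredoxin reductase 1 (Txnrd1). Each window has 100 bases, 5′ to 3′ along the gene, with the match in capitals as the core or its reverse complement. They lie on the + strand at chr6:138140425-138140524 for Mgst1, chr1:21240418-21240517 for Gsta3, chr3:122245377-122245476 for Gclm and chr10:82859068-82859167 for Txnrd1. A match describes these letters and is not a measured binding site.
Mgst1: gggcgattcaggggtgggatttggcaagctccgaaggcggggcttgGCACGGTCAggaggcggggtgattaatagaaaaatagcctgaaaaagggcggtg
Gsta3: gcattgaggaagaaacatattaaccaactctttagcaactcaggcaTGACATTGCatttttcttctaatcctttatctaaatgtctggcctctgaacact
Gclm: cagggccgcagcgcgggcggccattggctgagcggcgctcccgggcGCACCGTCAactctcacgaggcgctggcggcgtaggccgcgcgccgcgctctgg
Txnrd1: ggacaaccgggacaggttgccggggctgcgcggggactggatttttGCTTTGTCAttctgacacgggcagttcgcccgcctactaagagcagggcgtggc

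Srxn1, sulfiredoxin, which repairs overoxidised peroxiredoxins, had 12.15, 12 and 12.07 in SPIO-LPS and 10.17, 10.09 and 10.08 in Silica-LPS. The groups lay far apart, and the gene was 3.9-fold higher in SPIO-LPS (1.96 ± 0.066, adjusted p = 1.4e-11). Gclm had 12.67, 12.65 and 12.69 in SPIO-LPS and 11.12, 11.04 and 11.08 in Silica-LPS, 3.01-fold higher in SPIO-LPS without overlap. The catalytic subunit Gclc was 2.79-fold higher, with 10.12, 10.10 and 10.13 in SPIO-LPS and 8.69, 8.61 and 8.61 in Silica-LPS, and the cystine importer Slc7a11, which feeds the pathway, 2.15-fold. The transferases Gsta3, Gstm1 and Mgst1 were higher by 1.82, 1.30 and 0.46, Txnrd1 by 0.98 and the quinone reductase Nqo1 by 0.67. In each of these genes every SPIO-LPS array lay above every Silica-LPS array. All had passed the test, and 97.9% of such genes did not overlap, against 40% of all genes. Among the lower genes was Ephx1, an epoxide hydrolase, which fell by 0.52. The transcript of NRF2 itself, Nfe2l2, averaged 11.92 in SPIO-LPS and 11.98 in Silica-LPS, and its difference of −0.06 did not pass.

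For several of these genes the particle difference depended on LPS. It was more positive with LPS by 0.80 for Srxn1, 0.85 for Gclc and 0.64 for Gclm (adjusted p = 5.96e-05, 4.65e-06 and 6.63e-05). Gclm averaged 12.67 in SPIO-LPS, 11.08 in Silica-LPS and 10.91 with LPS alone, and 12.67 with SPIO, 11.72 with silica and 11.79 in CON. For Hmox1 the change was 0.10 and did not pass. Of the 35 genes, 11 had a difference that depended on LPS, 9 more positive and 2 more negative with LPS, and 5.79% of all genes did. The 2 were Gstm1 (−0.24) and glutathione reductase (Gsr, −0.36). Against LPS alone the list's median was 0.75 for SPIO-LPS and 0.09 for Silica-LPS, 2 contrasts that share the LPS arrays.

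Lysosomal genes were higher for 24 of 43 and lower for 3 (median 0.15). TFEB is known to bind the CLEAR element, searched as TCACGTGA, which reads the same on both strands. It occurred in 7 of 37 lysosomal genes with a promoter (18.9%), in 7 of the 20 that were higher and 0 of the 3 that were lower, against 174 of 9887 measured genes (1.8%). The windows of 100 bases printed here, from genes that were higher in SPIO-LPS, are written 5′ to 3′ along each gene with the match in capitals. RefSeq places them at chr16:44139338-44139437 on the − strand for Atp6v1a, chr8:3500419-3500518 on the + strand for Mcoln1, chrX:134601156-134601255 on the − strand for Gla, which holds 2 matches, and chr7:142387873-142387972 on the − strand for Ctsd (build GRCm38.p6).
Atp6v1a: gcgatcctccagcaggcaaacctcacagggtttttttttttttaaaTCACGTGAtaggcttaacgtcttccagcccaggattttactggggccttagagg
Mcoln1: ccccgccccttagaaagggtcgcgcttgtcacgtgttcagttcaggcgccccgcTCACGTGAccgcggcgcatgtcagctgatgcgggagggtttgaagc
Gla: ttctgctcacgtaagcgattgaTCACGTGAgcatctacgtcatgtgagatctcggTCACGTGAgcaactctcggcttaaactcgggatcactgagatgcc
Ctsd: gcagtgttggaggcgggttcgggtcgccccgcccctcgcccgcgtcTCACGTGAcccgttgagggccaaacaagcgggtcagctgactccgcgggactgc

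The sorting receptor Sort1 had 8.94, 8.93 and 8.95 in SPIO-LPS and 7.97, 7.85 and 7.96 in Silica-LPS (1.02 ± 0.054). Lysosomal acid lipase (Lipa) was higher by 0.74, the proton pump subunit Atp6v1a by 0.66, the cation channel Mcoln1 by 0.63, alpha-galactosidase A (Gla) by 0.62, prosaposin (Psap) by 0.47 and cathepsin D (Ctsd) by 0.46. None of these 7 genes overlapped between the groups, as held for 97.9% of the genes that passed the test and 40% of all genes. Autophagy genes were higher for 9 of 22 and lower for 3 (median 0.11), with 5 to 9 higher over the alternatives. The cargo receptor Sqstm1, also called p62, had 13.24, 13.22 and 13.28 in SPIO-LPS and 11.89, 11.83 and 11.85 in Silica-LPS, 2.62-fold higher in SPIO-LPS (adjusted p = 1.4e-11). Gabarapl1, which is attached to autophagosome membranes, was higher by 0.73 and Atg7, an enzyme of that attachment, by 0.34, on 1 of its 3 probe sets and not without Silica-LPS replicate 3, SPIO-LPS replicate 1 or SPIO-LPS replicate 2 (adjusted p = 0.0538 to 0.0864). Uvrag, which takes part in vesicle maturation, was lower (−0.38).

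Cholesterol synthesis and uptake genes were higher for 16 of 19 and lower for 0 (median 0.34). Mevalonate decarboxylase (Mvd) was higher by 0.85, lanosterol synthase (Lss) by 0.61, squalene synthase (Fdft1) by 0.60 and Hmgcs1, an early enzyme of the pathway, by 0.34. Farnesyl diphosphate synthase (Fdps) had 10.05, 10.00 and 10.09 in SPIO-LPS and 9.30, 9.37 and 9.26 in Silica-LPS, without overlap (0.74). Against LPS alone the list's median was 0.70 for SPIO-LPS and 0.35 for Silica-LPS, with shared LPS arrays. Without LPS, all 19 of the 19 genes were higher with SPIO than with silica (median 0.49). The sterol element TCACNCCAC was in 1 of 15 listed promoters (6.7%), that of Hmgcs1, and in 1.5% of measured genes. Of 14 liver X receptor targets 6 were higher and 4 lower in SPIO-LPS: Mylip, which degrades the LDL receptor, was higher by 0.95 and the lipid transfer protein Pltp fell by 0.59. Of 15 PPAR targets 5 were higher and 3 lower in SPIO-LPS, with the fatty acid carrier Fabp4 and the scavenger receptor Cd36 higher by 0.64 and 0.58 and the kinase Pdk4 lower (−1.10).

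**Figure D2:**
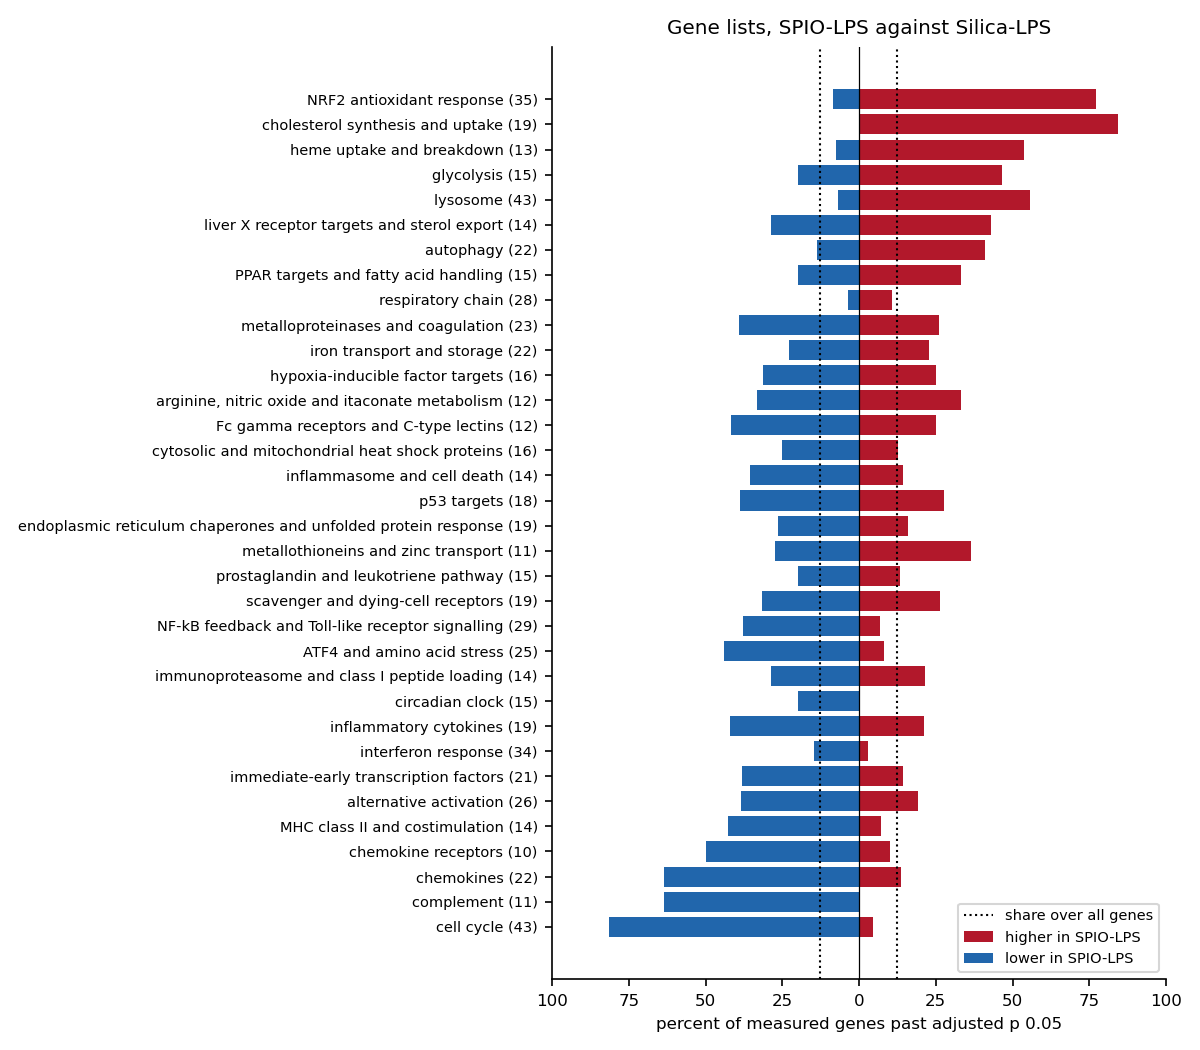
Percent of the measured genes of 34 lists (number in brackets) that were higher (right) or lower (left) in SPIO-LPS than in Silica-LPS at an adjusted p below 0.05, ordered by median difference. Dotted lines mark the shares over all genes, 12.2% higher and 12.9% lower, and the bars of the NRF2 and cholesterol genes reach far to the right and those of the cell cycle genes far to the left.

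The cell cycle list leaned the other way, with 35 of 43 genes lower in SPIO-LPS and 2 higher (median −0.46). The kinesin Cenpe, which moves chromosomes in mitosis, had 4.52, 4.44 and 4.30 in SPIO-LPS and 5.84, 5.56 and 5.60 in Silica-LPS (−1.24). Cyclin E2 (Ccne2) fell by 0.87, the mitotic kinase Aurkb by 0.81, the kinesin Kif20a by 0.79 and cyclin D1 (Ccnd1), which answers growth factors, by 0.72. A second, dimmer probe set of Aurkb gave −0.34 and did not pass. The higher genes were Pcna, the sliding clamp of DNA replication, by 0.27, and Mki67, the Ki-67 antigen, by 0.33. The list's median was −0.44 for SPIO minus Silica without LPS. For 0 of the 43 genes the difference depended on LPS by test, as it did for only 5.79% of all genes. The 14 fibroblast markers given above were lower in the same arrays.

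Among the cytokines, Il10 and Il1rn, which restrain inflammation, were lower in SPIO-LPS, and so were others such as Il18 and interferon beta (Ifnb1, −0.54). Tnf, Il6, Il12a and Il23a were higher, with calls for Il6 and Il23a that depended on the setting. Over the list 4 of 19 were higher and 8 lower (median −0.13), with 2 to 4 higher over the alternatives. Il10 had 6.66, 6.95 and 6.84 in SPIO-LPS and 8.44, 8.37 and 8.44 in Silica-LPS. The groups did not overlap, and Il10 was 3.02-fold lower in SPIO-LPS (−1.60 ± 0.13, adjusted p = 2.89e-07), with 8.78 ± 0.053 (SD, n = 3) under LPS alone. The IL-1 receptor antagonist Il1rn was 1.99-fold lower, with 10.95, 10.94 and 10.95 in SPIO-LPS and 11.97, 11.98 and 11.87 in Silica-LPS. Il18, an inducer of interferon gamma, fell by 0.59. Il12a, a subunit of IL-12, was higher by 0.93, with 5.86, 6.13 and 6.42 in SPIO-LPS and 5.09, 5.06 and 5.48 in Silica-LPS. Il23a, the subunit specific to IL-23, was dim and higher by 0.52 with arrays that overlapped. Its call was lost with the compared arrays alone (adjusted p = 0.13) and without Silica-LPS replicate 1 (0.103), Silica-LPS replicate 2 (0.058), SPIO-LPS replicate 1 (0.102) or SPIO-LPS replicate 3 (0.0523).

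Tnf, an early inflammatory cytokine, had 13.09, 13.02 and 13.03 in SPIO-LPS and 12.63, 12.56 and 12.59 in Silica-LPS, higher by 0.45 ± 0.084 (adjusted p = 0.000821). Il6, which drives the acute phase response, had 12.40, 12.57 and 12.38 in SPIO-LPS and 12.04, 12.02 and 12.15 in Silica-LPS, higher by 0.38 ± 0.12 (adjusted p = 0.0251). Neither overlapped, but the Il6 call was lost without Silica-LPS replicate 1, Silica-LPS replicate 2 or SPIO-LPS replicate 2, at adjusted p of 0.0703, 0.0783 and 0.0957. Il1b, which encodes the precursor of IL-1 beta, had 13.60, 13.60 and 13.56 in SPIO-LPS and 13.86, 13.73 and 13.87 in Silica-LPS. The SPIO-LPS arrays were the lower ones, yet the difference of −0.23 missed the threshold (adjusted p = 0.0526), which it passed in 6 of the alternative settings at 0.0285 to 0.047. Without LPS, Il1b differed by −1.45 between the particles, and the change with LPS was 1.22 (adjusted p = 8.66e-06). Il12b, the other subunit of IL-12, differed by 0.19 and did not pass, except with the compared arrays alone (adjusted p = 0.0488). The values of Lyz2, Il1b, Cxcl1, Ccl3, Ccl5, Cxcl10, Rsad2 and Cd14 lie near the top of the scale under LPS.

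**Figure D3:**
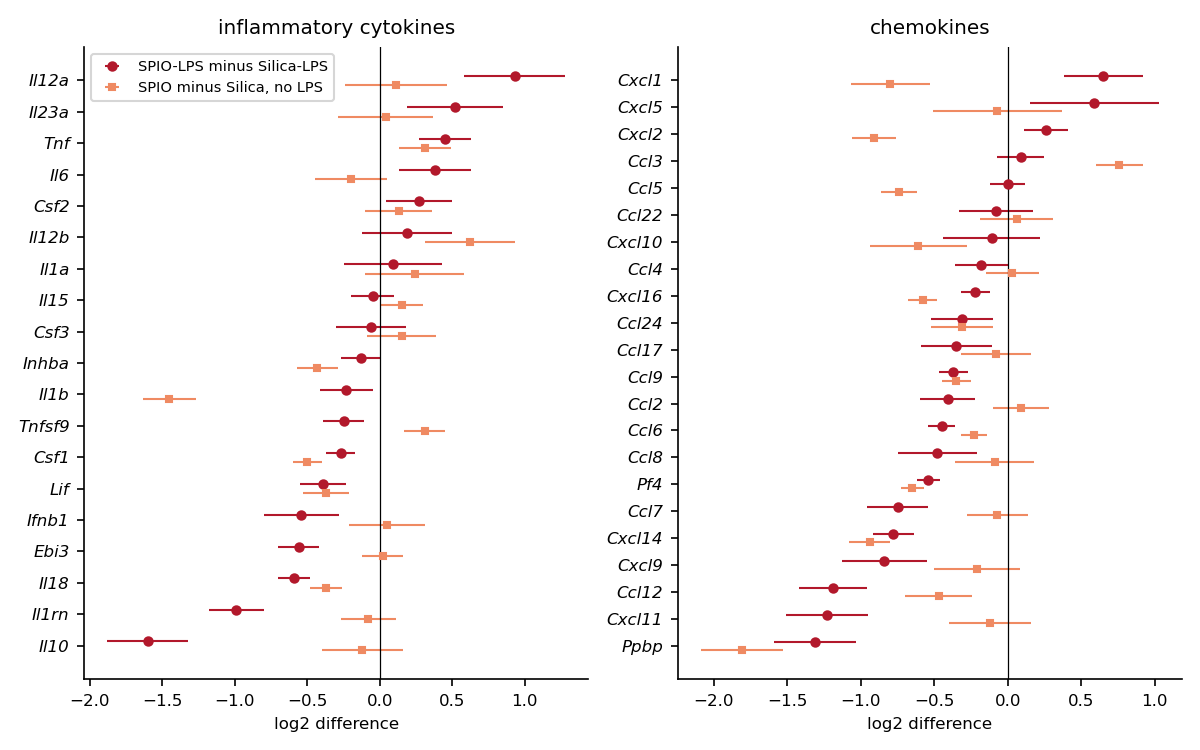
Log2 differences of 19 cytokines and 22 chemokines, with 95% intervals from the limma fit, where circles are SPIO-LPS minus Silica-LPS and squares SPIO minus Silica without LPS. Il10 and Il1rn lie at −1.60 and −0.99 with LPS and near 0 without it, and Cxcl1 lies at 0.65 with LPS and at −0.80 without it. Il10 and Cxcl1 are dim without LPS and not shown to be above background there.

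Chemokine genes were lower in SPIO-LPS for 14 of 22 and higher for 3 (median −0.36). Cxcl11 and Cxcl9, interferon-induced ligands that draw activated T cells, fell by 1.23 and 0.84, while the related Cxcl10, with 14.17, 14.24 and 14.09 in SPIO-LPS and 14.29, 14.23 and 14.30 in Silica-LPS, did not pass. The monocyte attractant Ccl12 had 9.09, 9.56 and 9.29 in SPIO-LPS and 10.48, 10.49 and 10.54 in Silica-LPS, without overlap (−1.19), and Ccl2 fell by 0.41. The platelet chemokines Ppbp and Pf4 fell by 1.31 and 0.54. Cxcl1, a neutrophil attractant, had 13.18, 13.20 and 13.26 in SPIO-LPS and 12.56, 12.54 and 12.59 in Silica-LPS, higher by 0.65 ± 0.12 (adjusted p = 0.00106), and Cxcl2, of the same function, was higher by 0.26. Without LPS both were lower with SPIO than with silica, at −0.80 for Cxcl1 and −0.91 for Cxcl2. Cxcl1 was dim there, at 4.05, 4.51 and 4.00 with SPIO and 5.18, 4.68 and 5.10 with silica. At those levels Cxcl1 is not shown to be above background. Ccl3 and Ccl5, which attract monocytes and T cells, differed by 0.09 and 0.00 and did not pass.

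Of 10 chemokine receptors 1 was higher and 5 lower in SPIO-LPS (median −0.34). Ccr2, the receptor for Ccl2 on monocytes, had 4.96, 5.61 and 5.26 in SPIO-LPS and 7.13, 6.85 and 6.91 in Silica-LPS. It was lower in SPIO-LPS (−1.69 ± 0.12, adjusted p = 5.22e-08), and its other probe sets gave −0.80 and −0.32, of which the smaller did not pass. The SPIO-LPS values of Ccr2 are dim and not shown to be above background, so no fold is given. Ccr1, a receptor for Ccl3 and Ccl5, was 2.58-fold lower, with 8.50, 8.58 and 8.42 in SPIO-LPS and 9.84, 9.93 and 9.82 in Silica-LPS. Cx3cr1, the fractalkine receptor, was lower with LPS (−0.85) and without it (−1.90), and the change was 1.05 (adjusted p = 0.00102). Adgre4, an adhesion receptor of macrophages, and P2ry12, a receptor for ADP, fell by 1.65 and 1.42. The 3 monocyte markers given above include Ccr2 itself.

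In the list for Toll-like receptor signalling and NF-kB feedback 11 of 29 were lower and 2 higher (median −0.07). Dusp2, a MAP kinase phosphatase, had 9.30, 9.47 and 9.24 in SPIO-LPS and 10.47, 10.46 and 10.46 in Silica-LPS (−1.13), and the related Dusp1 fell by 0.93. Socs1, which blocks cytokine receptor signalling, fell by 0.69, the ubiquitin-editing enzyme A20 (Tnfaip3) by 0.59 and the NF-kB cofactor Bcl3 by 0.57. The higher genes were the NF-kB inhibitor Nfkbib (0.23) and the LPS receptor Tlr4 (0.19). The Nfkbib call was lost without SPIO-LPS replicate 3 (adjusted p = 0.0583) and that of Tlr4 with the compared arrays alone (0.0599). The Tlr4 coreceptor Cd14 (−0.07) did not pass. Of 21 immediate-early transcription factors 3 were higher and 8 lower in SPIO-LPS: Ier2, Fos and Egr1 fell by 0.58, 0.52 and 0.49, and Maff, a small partner of NRF2, was higher by 0.55.

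Of 34 interferon response genes 1 was higher and 5 lower in SPIO-LPS (median −0.13). That is 17.6% of the list, below the 25.1% of all genes that differed. Irf7, which amplifies the response, fell by 0.33, and interferon beta itself (Ifnb1) by 0.54. The antiviral effectors Ifit1 and Rsad2 differed by −0.05 and 0.04 and did not pass. Rsad2 averaged 14.29 in SPIO-LPS and 14.25 in Silica-LPS, near the top of the scale, where a difference could be hidden. Without LPS, 21 of the 34 genes were lower with SPIO than with silica and 0 higher, at a median of −0.32, and 26.1% of all genes differed in that contrast. The particle difference depended on LPS for 6 of the 34, with 6 more positive and 0 more negative with LPS, and for 5.79% of all genes. The interferon element GAAANNGAA, searched on both strands, was in 16 of 25 listed promoters (64%) and in 8.6% of measured genes.

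Of 26 alternative activation genes 5 were higher and 10 lower in SPIO-LPS (median −0.18). Arginase 1 (Arg1), which turns arginine into ornithine, had 6.76, 6.54 and 6.31 in SPIO-LPS and 8.24, 8.28 and 8 in Silica-LPS, 3.1-fold lower in SPIO-LPS without overlap (−1.63 ± 0.19, adjusted p = 1.09e-05). With LPS alone it averaged 7.19 ± 0.12 (SD, n = 3), between the particle groups: the difference from LPS was −0.65 for SPIO-LPS (adjusted p = 0.0151) and 0.98 for Silica-LPS (adjusted p = 0.00998), with shared LPS arrays. The IL-4 receptor chain Il4ra fell by 0.78, the coagulation factor chain F13a1 by 0.70 and the mannose receptor Mrc1 by 0.48, while Gas6, which bridges dying cells to phagocytes, was higher by 0.59. In the list of arginine, nitric oxide and itaconate metabolism 4 of 12 were higher and 4 lower, with arginase 2 (Arg2) at 0.58 and the nitric oxide synthase Nos2 at −0.42. Of 19 scavenger and dying-cell receptors 5 were higher and 6 lower in SPIO-LPS, with Mertk, the receptor for Gas6, counted among the liver X receptor targets and higher by 0.56.

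Of 14 genes for MHC class II and costimulation 1 was higher and 6 lower in SPIO-LPS (median −0.24). H2-Aa, a class II chain that presents peptides, had 8.56, 8.51 and 8.69 in SPIO-LPS and 9.43, 9.41 and 9.41 in Silica-LPS (−0.83). The class II chains H2-Eb1 and H2-Ab1 fell by 0.87 and 0.65 and the invariant chain Cd74 by 0.78. The higher gene was Cd274, the checkpoint ligand PD-L1, by 0.23. Of 12 Fc gamma receptors and C-type lectins 3 were higher and 5 lower in SPIO-LPS: Fcgr4, Fcgr1 and Fcgr3, receptors for antibody-coated targets, fell by 1.31, 0.78 and 0.64. Clec4n, the fungal receptor Dectin-2, was higher by 1.18, with 12.06, 11.97 and 12.08 in SPIO-LPS and 10.94, 10.81 and 10.82 in Silica-LPS. Of 11 complement genes 0 were higher and 7 lower in SPIO-LPS (median −0.39): properdin (Cfp), which stabilises the alternative pathway, fell by 1.01, and C1qa and C1qc, chains of the first component, by 0.79 and 0.50. Of 14 immunoproteasome and class I genes 3 were higher and 4 lower in SPIO-LPS, with the class I chain H2-D1 at 0.23 and the proteasome subunit Psmb9 at −0.17. The Psmb9 call was lost without Silica-LPS replicate 2, SPIO-LPS replicate 1 or SPIO-LPS replicate 2 (adjusted p = 0.093, 0.0534 and 0.0655).

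Of 15 glycolysis genes 7 were higher and 3 lower in SPIO-LPS (median 0.17). The lower genes included Pfkfb3, which makes the activator fructose-2,6-bisphosphate, with 9.75, 9.78 and 9.70 in SPIO-LPS and 11.16, 11.26 and 11.20 in Silica-LPS, 2.76-fold lower in SPIO-LPS without overlap (adjusted p = 1.4e-11). The lactate carrier Slc16a1 fell by 0.55, and the glycolytic enzyme Aldoa was higher by 0.43. Of 16 hypoxia-inducible factor targets 4 were higher and 5 lower in SPIO-LPS, with Vegfa, the vascular growth factor, at −0.87. Of 28 respiratory chain subunits 3 were higher and 1 lower in SPIO-LPS (median 0.04), which is 14.3% against 25.1% of all genes. Of 25 ATF4 and amino acid stress genes 2 were higher and 11 lower in SPIO-LPS: the mTORC1 inhibitor Ddit4 fell by 0.51, the proline synthesis enzyme Aldh18a1 by 0.45 and the stress protein Nupr1 by 0.44. The dimmer probe sets of Aldh18a1 gave −0.03 to −0.23, of which only the largest difference passed. The amino acid response element TGATGNAA, searched on both strands, was in 8 of 22 promoters of the ATF4 list (36.4%) and in 3.1% of measured genes. Of 11 metallothionein and zinc transport genes 4 were higher and 3 lower in SPIO-LPS: the metal-binding Mt2 and Mt1 fell by 0.68 and 0.37, and the zinc exporter Slc30a1 was higher by 0.44. The Mt1 call was lost when its probe sets were averaged (−0.15, adjusted p = 0.126).

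Of 19 endoplasmic reticulum chaperone genes 3 were higher and 5 lower in SPIO-LPS, with Herpud1, which serves protein degradation there, at −0.36. Of 16 heat shock genes 2 were higher and 4 lower in SPIO-LPS, and the inducible chaperones Hspa1b and Hspa1a, near-identical copies whose signals may not be separable, fell by 0.57 and 0.50. Of 18 p53 targets 5 were higher and 7 lower in SPIO-LPS: the kinase Plk2 was higher by 1.45, while the death receptor Fas, the antiproliferative Btg2 and the death factor Pmaip1 fell by 0.56, 0.55 and 0.46. Of 14 inflammasome and cell death genes 2 were higher and 5 lower in SPIO-LPS, with the adaptor Pycard at −0.50 and Bid, which couples death receptors to mitochondria, at 0.48. Of 15 prostaglandin and leukotriene genes 2 were higher and 3 lower in SPIO-LPS, with the prostaglandin E2 receptor Ptger4 at −0.70 and Hpgd, which degrades prostaglandins, at −0.85. A second, dimmer probe set of Hpgd gave 0.00 and did not pass. Of 23 metalloproteinase and coagulation genes 6 were higher and 9 lower in SPIO-LPS, with the collagenase Mmp8 at 0.89 and the protease inhibitor Serpinb2 at −0.86. Of 15 circadian clock genes 0 were higher and 3 lower in SPIO-LPS, which is 20.0% against 25.1% of all genes.

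Some of the largest differences lay outside these pathways. Bex1, a small protein known mainly from the nervous system, had 4.82, 5.41 and 5.65 in SPIO-LPS and 2.98, 3.17 and 2.71 in Silica-LPS (2.34). The Silica-LPS values lie close to the array minima of 2.03 to 2.22 and are not shown to be above background, so no fold is given. Vwf, the clotting protein of endothelium and platelets, had 7.11, 7.19 and 7.19 in SPIO-LPS and 4.99, 4.88 and 5.08 in Silica-LPS (2.18). Its Silica-LPS values are dim and not shown to be above background, so again no fold is given. The endothelial markers Cdh5 and Kdr were lower (−0.43 and −0.30), and the others did not pass. The Cdh5 call was lost with averaged probe sets (−0.19, adjusted p = 0.0846), its dimmer probe set giving 0.05. The Kdr call was lost with the compared arrays alone and without Silica-LPS replicate 1, Silica-LPS replicate 2, SPIO-LPS replicate 1 or SPIO-LPS replicate 3 (adjusted p = 0.0573 to 0.132). Afp, a plasma protein of the fetal liver, had 8.63, 8.58 and 8.86 in SPIO-LPS and 6.75, 6.62 and 6.64 in Silica-LPS (2.02), and 3 of its 4 other probe sets were higher too. Without LPS, Bex1, Vwf and Afp differed by 3.56, 2.05 and 1.67. The poly(A) polymerase Tent5c was higher by 1.92, the ATP release channel Panx1 by 1.63, the protein C receptor Procr by 1.61, the protease inhibitor Slpi by 1.55 and the proton channel Hvcn1 by 1.48.

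The oxysterol enzyme Ch25h had 10.35, 10.51 and 10.35 in SPIO-LPS and 11.97, 11.95 and 12.03 in Silica-LPS, 2.98-fold lower in SPIO-LPS without overlap. Osteoprotegerin (Tnfrsf11b), a decoy receptor for the osteoclast factor RANKL, fell by 1.47, Ifitm6, of the interferon-induced transmembrane family, by 1.42, the acute-phase protein Saa1 by 1.38, Rassf2, of the Ras association family, by 1.28 and Tbc1d8, of the Rab GTPase-activating family, by 1.25. A dimmer second probe set gave −0.20 for Tnfrsf11b and −0.23 for Tbc1d8, and neither passed.

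Set beside LPS alone, SPIO-LPS differed for 4058 genes (32.7%), with 69 higher and 80 lower by at least 2-fold. Silica-LPS differed from LPS for 355 genes (2.86%), with 0 at 2-fold, a count that was 186, 196 and 214 without Silica-LPS replicate 3, LPS replicate 2 and Silica-LPS replicate 1. It was 63 with the compared arrays alone, 577 with a variance trend and robust prior, and 536 without dim genes. Both contrasts use the same LPS arrays. Without LPS, SPIO and Silica differed for 3240 genes, on arrays that enter the comparison under LPS only through the choice of probe set and the spread shared in the fit. The change of the particle difference with LPS passed the test for 717 genes (5.79%), 258 of them more positive and 459 more negative with LPS. Among these 717, the particles differed the same way in both conditions for 80 genes with a larger and 66 with a smaller difference under LPS, and opposite ways for 86. They differed under LPS alone by test for 243 genes, without LPS alone for 235, and in neither for 7.

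**Figure D4:**
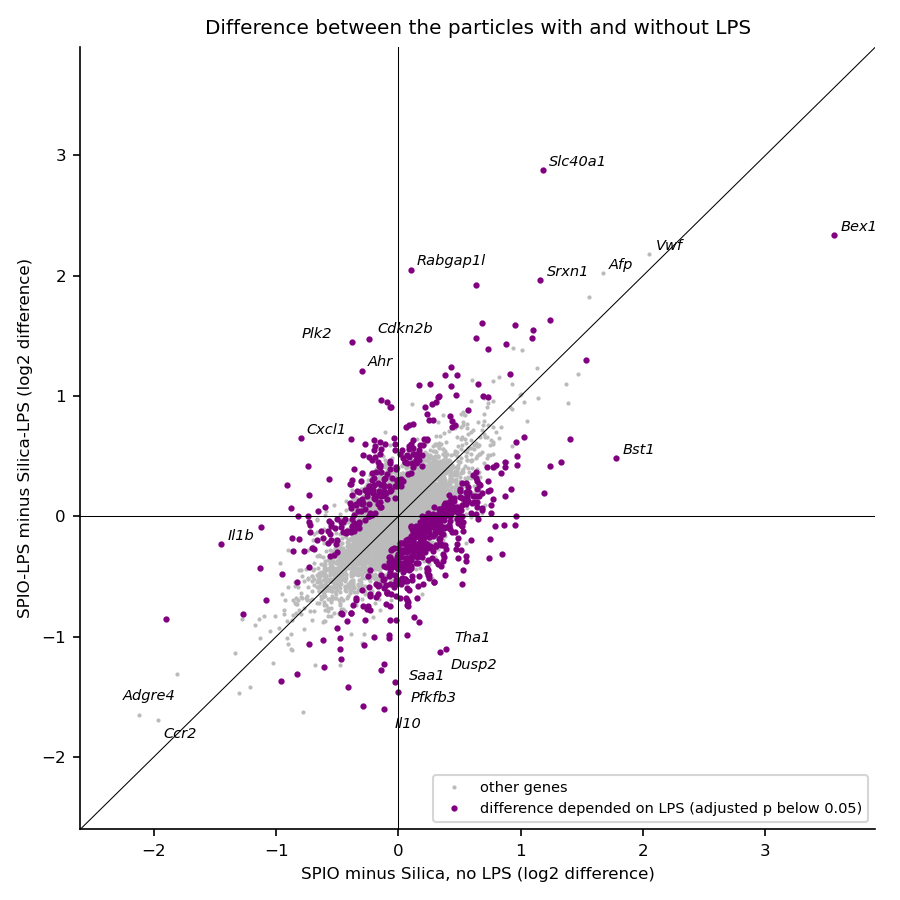
Difference between the particles with LPS (SPIO-LPS minus Silica-LPS, vertical, log2) and without LPS (SPIO minus Silica, horizontal, log2), with 1 point per gene and the line of equal differences. The 717 purple genes changed between the conditions by test, with Slc40a1 and Rabgap1l above the line and Il10 and Pfkfb3 below it.

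Rabgap1l, of the Rab GTPase-activating family, had 8.72, 8.65 and 8.87 in SPIO-LPS and 6.80, 6.60 and 6.70 in Silica-LPS (2.05), and the particles differed by 0.10 without LPS. The change was 1.95 ± 0.097 (adjusted p = 1.11e-08), while a second, dim probe set gave 0.13 under LPS. Plk2, a stress-induced kinase, had 11.23, 11.13 and 11.20 in SPIO-LPS and 9.72, 9.72 and 9.76 in Silica-LPS, and differed by −0.38 without LPS (change 1.84 ± 0.062, adjusted p = 1.17e-10). The cell cycle inhibitor Cdkn2b and the aryl hydrocarbon receptor Ahr were 2.77-fold and 2.32-fold higher under LPS, and differed by −0.24 and −0.30 without it. A second, dimmer probe set of Ahr gave 0.27 under LPS and did not pass. Pfkfb3, Il10 and Saa1 differed by −1.46, −1.60 and −1.38 with LPS, and by 0.00, −0.12 and −0.03 without it. Of these, Il10 and Saa1 are dim and not shown to be above background without LPS. Tha1, a threonine aldolase, and Dusp2 were lower with LPS (−1.10 and −1.13) and higher without it (0.39 and 0.34). Bst1, an ectoenzyme that makes cyclic ADP-ribose, differed by 0.48 with LPS and by 1.78 without it.

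Genes that LPS alone had raised were more often lower than higher in SPIO-LPS. Of 651 genes raised at least 2-fold by LPS over CON, 88 (13.5%) were higher and 238 (36.6%) lower in SPIO-LPS than in Silica-LPS, 441 had a difference below 0, and the median was −0.12. Of 762 genes that LPS had lowered at least 2-fold, 185 (24.3%) were higher and 136 (17.8%) lower, with a median of 0.03. Among the other 10980 genes 11.3% were higher and 11.2% lower. The particle difference depended on LPS for 192 of the raised genes (29.5%), 90 of the lowered genes (11.8%) and 435 of the others (4.0%). The sets were formed on the LPS and CON arrays. The size of a particle difference uses these arrays only in the choice of probe set. Its test also uses them through the spread that the fit shares over all 18 arrays. The counts that passed are therefore not independent of how the sets were formed.

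**Figure D5:**
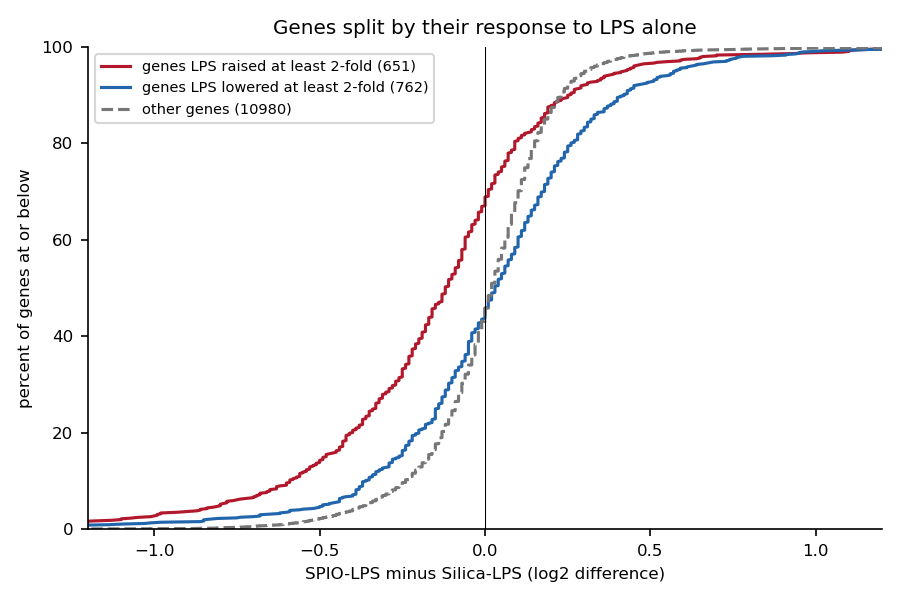
Cumulative percent of genes (vertical) at or below each log2 difference of SPIO-LPS minus Silica-LPS (horizontal), for 651 genes raised and 762 genes lowered at least 2-fold by LPS alone and for the other 10980 genes. The curve of the raised genes lies to the left of both other curves at negative differences, with a median of −0.12.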

How the data were processed

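Biotin-labelled RNA was hybridised to 18 Affymetrix arrays, 3 for each of 6 groups, which were taken from the array titles. The deposited values are log2 signals that the authors made with RMA, per the submitters' processing notes, a method that in its usual form corrects background, normalizes by quantiles and summarises probes; no software version is given in the sources used here. No detection calls were used, so a dim gene is not shown to be expressed, and the number of arrays limits the precision.

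Of 22690 probe sets, 64 were controls, 20380 had 1 gene symbol, 691 several and 1555 none. Names came from the platform annotation, updated to RefSeq through the gene ID for 20351 probe sets. Each of the 12393 genes was represented by its probe set with the highest mean over the 18 arrays, and 4956 genes had more than 1. Of 74 genes named by the rule with more than 1 probe set, 72 passed the test on the one used; every other probe set passed the same way for 43 of them, another did not pass for 29, and 0 passed in the opposite direction. Genes of a list that were not measured are not analysed here.

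Differences came from limma 3.58.1 (R 4.3.3) fitted to all 18 arrays with 1 mean per group, moderated variances and Benjamini-Hochberg adjustment over all 12393 genes, with a threshold of 0.05. SE and 95% intervals are those of the fit, and ± after a group mean is the SD of 3 arrays. The same fit gave SPIO minus Silica, each particle with LPS minus LPS, and the change of the particle difference with LPS. The fit was also run on simulated data, with known changes of a small share of genes in SPIO-LPS and independent normal noise. That setting is simpler than these data, so the run is no support for the results. Figures were drawn with matplotlib 3.10.9 (Python 3.11.15).

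The genes named were the 15 largest rises and falls among genes that passed without overlap, up to 4 genes of largest size from each list with at least 25% of its genes past the threshold, the 6 largest changes with LPS each way, and a fixed set. The following were chosen after their values were seen: Txnrd1, Gstm1, Mgst1, Gla, Ctsd, Cxcl2, Slc11a1, Cd274, Ifnb1, Irf7, Il23a, Pf4, Adgre1, Lyz2, Csf1r, Tyrobp, Col1a2, Acta2, S100a8, S100a9, Pcna, Mki67, Nfe2l2, Ccl5, Psap, Bcl3, Hmgcs1, Ephx1, Ifit1, Rsad2, Gsr and Nfkbib. The comparison and the gene lists were chosen with earlier results of these data known. Alternatives were the compared arrays alone, the replicate number as a block, a variance trend with a robust prior, no dim genes, averaged or separate probe sets, cyclic loess, array weights, and leaving out each replicate.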

Additional observations from a re-analysis of the deposited data

Results flagged for a closer look

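For 12 genes the difference between the particles changed most with LPS, by the limma test of that change. The difference was more positive with LPS by 1.95 for Rabgap1l, 1.84 for Plk2, 1.71 for Cdkn2b, 1.70 for Slc40a1, 1.51 for Ahr and 1.45 for Cxcl1. It was more negative with LPS for Tha1 (−1.49), Pfkfb3 (−1.47), Dusp2 (−1.47), Il10 (−1.47), Saa1 (−1.35) and Bst1 (−1.30). All values are on the log2 scale, over 3 arrays in each of SPIO-LPS, Silica-LPS, SPIO and Silica. Slc40a1 was higher with SPIO in both conditions, while Plk2, Ahr, Cxcl1, Tha1 and Dusp2 differed by test in opposite directions. Il10 and Cxcl1 were dim without LPS and are not shown to be above background there. Saa1 was dim too, with a mean log2 signal of 4.52 over all arrays, and is not shown to be above background without LPS.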

How the results depend on the processing

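The count of genes that differed between SPIO-LPS and Silica-LPS was 3113 and lay between 2475 with the compared arrays alone and 3354 with a variance trend and robust prior; over every probe set it was 4541, and leaving out 1 replicate gave 2545 to 2729. The share of higher genes among the calls was 45.0% to 49.2%, against 48.6% in the reported fit. Replicate numbers did not pair the arrays of SPIO-LPS and Silica-LPS, whose same-numbered deviations correlated at −0.056, −0.015 and −0.067, and a replicate block gave 3027 genes, and 679 for the change with LPS. SPIO-LPS against LPS gave 6162 over every probe set, against 4058 by gene. Silica-LPS against LPS, at 355 genes, gave 63 with the compared arrays alone, 577 with a variance trend and robust prior and 536 without the dimmest genes, and 186 to 333 when 1 replicate was left out. Of the genes raised by LPS, 238 were lower in SPIO-LPS, and 366 probe sets were when each was tested on its own. Of 2749 repeats of the named genes' differences, 2703 kept direction and side of the threshold, 32 lost it, 8 gained it and 6 changed sign, and all 239 repeats of the 12 changes with LPS kept both. The sign changes came from leaving out 1 replicate, for genes that did not pass: Lyz2 (−0.02 to 0.01), Tyrobp (−0.01 to 0.03) and Ccl5 (−0.02 to 0.02). Of 90 list counts, 26 moved by over 1.5 times in at least 1 alternative, in 77 of 1260 repeats. Counts of higher genes that moved from more than 1 gene ranged over 2 to 4 for cytokines, 2 to 4 for metallothionein and zinc genes, 2 to 5 for p53 targets, 5 to 9 for autophagy, 0 to 2 for heat shock, 1 to 3 for Toll-like receptor and prostaglandin genes, 1 to 5 for the respiratory chain and 1 to 2 for inflammasome genes. Counts of lower genes ranged over 2 to 5 for endoplasmic reticulum and inflammasome genes, 5 to 9 for immediate-early factors, 2 to 4 for class I genes and liver X receptor targets, 3 to 5 for prostaglandin genes and 1 to 2 for endothelial markers. The others that moved stood at 0 or 1 and stayed at 2 or fewer. The causes were not tested.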

Other observations

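Probe sets outside the gene comparison differed as well. Of 1555 probe sets with no gene symbol in the annotation, 131 were higher and 120 lower in SPIO-LPS than in Silica-LPS (16.1%), and of 691 with several symbols 58 were higher and 103 lower (23.3%), in a limma fit over every probe set.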
